A study of Mus musculus with 8 samples.

Results

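The nuclear factor I family is described here by the SOX9 CUT&Tag signal at its genes Nfia, Nfib, Nfic and Nfix. The genes were listed by name, as partners of SOX9 in the making of glia. They are 4 of 21938 coding genes on the placed chromosomes of the mouse build GRCm38 (mm10). Each was read in a window of 1 kb to each side of its transcription start, in its body from start to end, and in 20 kb on each side.

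Nuclear factor I proteins bind DNA as dimers, through an amino-terminal domain that recognises a palindrome of TTGGC and GCCAA. In the embryonic spinal cord, SOX9 is required for the onset of Nfia expression, and SOX9 and NFIA then form a complex that acts at genes of early glial cells. In the adult cord, astrocytes express both SOX9 and nuclear factor I proteins, and ependymal cells express SOX9.

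CUT&Tag tethers a transposase to an antibody on chromatin, so that DNA near the bound protein is released as fragments. Nuclei came from a 5 mm segment of spinal cord and were sorted on the DNA dye 7AAD. The libraries of the 4 groups, 2 per group, come from WT mice of the strain C57BL/6, aged 8 to 12 weeks at entry by the methods and 2 to 6 months by the reporting summary of the study, which names the strain C57BL/6JR. The uninjured groups were sampled at the level of the lesion, and the 1 dpi groups 1 day after a mid-thoracic contusion. In each condition, 1 library was from a male (M) and 1 from a female (F), which are separate animals. The secondary-only control groups used 20% of the nuclei of each of the same samples, without the SOX9 antibody. By the methods, contusion was done under isoflurane, with xylocaine on the cord, and injured mice were given buprenorphine, carprofen and the antibiotics sulphadiazine and trimethoprim, so injury and these drugs cannot be told apart. No transgene or deletion was carried. The sample titles name no selected cell type, so the signal is read as that of all cells in the segment. The methods refer to the sorting used for the other nuclei of the study, where antibodies to NEUN or SOX10 were used beside 7AAD. Fewer SOX9-positive nuclei and less SOX9 signal per nucleus cannot be told apart.

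The SOX9 libraries held 1891276 (uninjured M), 7216730 (uninjured F), 2529356 (1 dpi M) and 2385009 (1 dpi F) fragments. The secondary-only controls held 22752, 46846, 52950 and 10906 in the same order. A level is the mean coverage per bp of a window divided by the mean coverage per bp of the library, so 1 is the library mean and levels of windows of different length can be compared. In a window around a start, 1 fragment is worth a level of 0.720 in uninjured M, 0.189 in uninjured F, 0.539 in 1 dpi M and 0.571 in 1 dpi F.

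The sex labels were checked on chromosome Y. Per 1000 fragments, 11.4 lay on chromosome Y in uninjured M, 1.01 in uninjured F, 6.26 in 1 dpi M and 1.51 in 1 dpi F of the SOX9 libraries. The controls held 1.98 in uninjured M (95% Wilson interval 1.48 to 2.65) and 4.46 in uninjured F (3.90 to 5.11), and 5.02 in 1 dpi M and 1.28 in 1 dpi F. On chromosome Y the uninjured controls therefore go against their sex labels, and they are called by those labels only. For 33.5% of the fragments of uninjured control M, the start and the end were each found among those of SOX9 uninjured M. In SOX9 uninjured F this held for 33.8%. For uninjured control F these shares were 19.9% and 44.7%. In each of these SOX9 libraries the control of the same sex label had the higher share. Whether the labels were exchanged was not tested. Each comparison with controls sums both sexes, so exchanging these labels would leave it as it is. It is given for all controls and for those at 1 dpi alone.

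The tissue was checked at the starts of marker genes, which here carry SOX9 signal and not RNA. The 5 astrocyte markers summed to levels of 18.9, 21.7, 26.4 and 14.1 in uninjured M, uninjured F, 1 dpi M and 1 dpi F. Slc1a2 was the highest of them, while Aqp4 was at 0 in uninjured M and 1 dpi F and Gja1 was at 0 in uninjured M. The 3 neuron markers summed to 17.5, 29.3, 21.8 and 12.9, and the 3 microglia markers to 4.76, 6.43, 8.32 and 3.07, with Syt1 and Tmem119 the highest of them by mean level. Of 4 genes not used by spinal cord cells, Alb and Ins2 were under the minimum level, but the lens gene Cryaa stood at 4.10, 8.02, 4.65 and 11.3 and the heart gene Myh6 at 7.39, 2.02, 0.127 and 2.72. A level of a few times the library mean at a start is thus not limited to genes of the tissue.

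**Figure D1:**
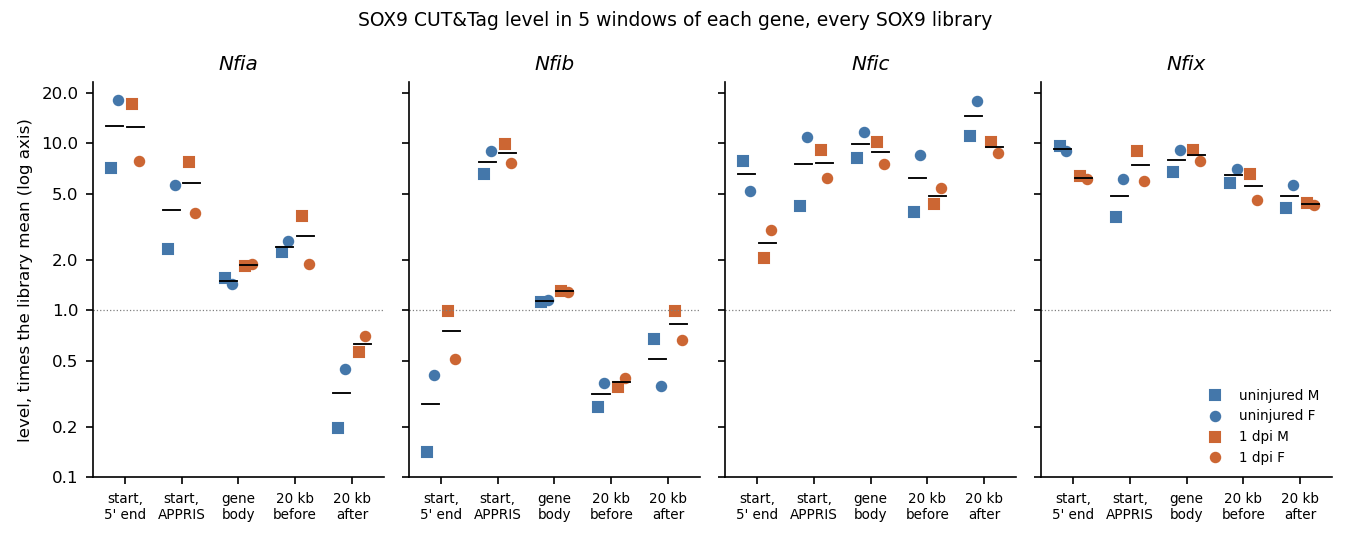
Level (mean coverage over the library mean, log axis) of Nfia, Nfib, Nfic and Nfix in 5 windows, with 1 point for each SOX9 library and black bars for the mean of each condition (n = 2). Bodies of Nfic and Nfix lie between 6.77 and 11.7, those of Nfia and Nfib between 1.13 and 1.90.

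Over whole gene bodies, the family fell into a high and a low set. Nfic, best known for its role in tooth root formation, had body levels of 8.22 in uninjured M, 11.7 in uninjured F, 10.2 in 1 dpi M and 7.54 in 1 dpi F. Nfix, a factor in neural stem cell quiescence and muscle differentiation, had 6.77, 9.08, 9.15 and 7.87 in the same libraries. Conditions overlapped for both genes. Nfia, the member that acts with SOX9 at the start of gliogenesis, had body levels of 1.56 and 1.43 in uninjured M and F and 1.83 and 1.90 in 1 dpi M and F. Nfib, which acts in gliogenesis and in lung maturation, had 1.13 and 1.16 in uninjured M and F and 1.31 and 1.29 in 1 dpi M and F. For Nfia and Nfib, both 1 dpi libraries lay above both uninjured ones.

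The order of the bodies from high to low was Nfic, Nfix, Nfia and Nfib in 3 of the SOX9 libraries, and Nfix came before Nfic in 1 dpi F. The levels of Nfic and Nfix overlapped across the 4 libraries, so these neighbours do not differ beyond their spread. Every library had both above Nfia, and Nfia above Nfib. Among all coding genes, the mean body level was at percentile 97.0 for Nfic, 95.7 for Nfix, 53.7 for Nfia and 41.4 for Nfib. Base composition separated these 2 sets. The GC content was 53.7% for Nfic and 53.1% for Nfix against 41.2% for Nfia and 41.7% for Nfib, and across the bodies of all coding genes the Spearman correlation of GC content with level was 0.73 (n = 21765 genes of the same libraries, which are not independent replicates). With coding genes divided into 10 classes of GC content, the 2181 genes in that of Nfic and Nfix had a median level of 3.89, and these members were at percentiles 94.3 and 90.7. The 2190 genes in that of Nfia and Nfib had a median of 0.907, and these members were at 83.4 and 65.1. The part of base composition in the levels was not tested further.

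No body changed at 1 dpi by limma on log2(level + 0.5). Nfia had means of 1.49 ± 0.0951 and 1.87 ± 0.0498 (SD, n = 2) and a log2 change of 0.25 (SE 0.15, 95% interval -0.14 to 0.63, limma adjusted p = 1.00). Nfib had means of 1.14 ± 0.0203 and 1.30 ± 0.0165 (SD, n = 2) and a log2 change of 0.13 (SE 0.15, interval -0.25 to 0.51). The log2 change was -0.15 (SE 0.40) for Nfic and 0.11 (SE 0.36) for Nfix, and these turned to 0.0866 for Nfic without uninjured F, 0.0496 for Nfic without 1 dpi F and -0.0925 for Nfix without uninjured M. Of the 4 bodies, 0 were called and 0 had an unadjusted p under 0.05, where 0% of 17729 tested bodies were called and 3.98% had an unadjusted p under 0.05 (378 higher and 328 lower). Bodies with both 1 dpi libraries above both uninjured ones were 2 of 4, against 13.3% of bodies, and 0 of 4 had both below, against 16.2%. With sex as a term in the model, 329 bodies of other genes were called (176 higher, 153 lower), and 55 were called without 1 dpi M and 100 without 1 dpi F. The 4 members were not among them in any of these fits.

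The 5′ end of each gene, taken from the longest annotated extent, gave a different order. Nfia, on the plus strand of chromosome 4, had levels of 7.08 in uninjured M, 18.1 in uninjured F, 17.3 in 1 dpi M and 7.80 in 1 dpi F around its 5′ end. The highest and the lowest value were both uninjured, so the conditions overlapped. Nfib, on the minus strand of the same chromosome, had 0.141 and 0.408 in uninjured M and F and 0.987 and 0.510 in 1 dpi M and F. These values rest on 1, 2, 2 and 2 fragments, and they are the lowest of the family in every library. Nfic, on chromosome 10, had 7.81 and 5.21 in uninjured M and F and 2.05 and 3.01 in 1 dpi M and F, from 9, 27, 3 and 4 fragments. Nfix, on chromosome 8, had 9.60 and 8.94 in uninjured M and F and 6.34 and 6.08 in 1 dpi M and F. At the 5′ ends of Nfic and Nfix, both 1 dpi libraries lay below both uninjured ones, and at that of Nfib both lay above. Among the 5′ ends of all coding genes, the mean level was at percentile 85.9 for Nfia, 71.8 for Nfix, 55.1 for Nfic and 17.3 for Nfib. Within their classes of GC content these members were at percentiles 98.5, 41.8, 29.8 and 7.75.

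None of these 5′ ends changed by the test. Nfic had means of 6.51 ± 1.83 and 2.53 ± 0.680 (SD, n = 2) and a log2 change of -1.20 (SE 0.68, 95% interval -2.53 to 0.12, limma adjusted p = 1.00), lower in 2 of 2 libraries. Nfix had a log2 change of -0.54 (SE 0.67), Nfib of 0.68 (SE 1.00) and Nfia of 0.03 (SE 0.68). With scaling by a trimmed mean of log ratios the change of Nfia was -0.0136, while Nfic and Nfix kept their direction under all 3 other scalings. Nfib kept it with the trimmed mean, but fell under the minimum and was not tested when scaled by the mean over autosomes or by the median window. Of 18195 tested windows, 1 rose and 0 fell, which is 0.0055%, and 1.81% had an unadjusted p under 0.05 (155 higher and 174 lower). Among the 4 members both counts were 0. The change of Nfia was -0.62 without uninjured M and -0.52 without 1 dpi M. Windows with both 1 dpi libraries above both uninjured ones made up 1 of 4 members and 8.44% of the tested windows, and windows with both below 2 of 4 members and 14.7%. In the fits of starts, flanks and tiles, limma took the spread from the trend over all windows alone, so an SE there says nothing of the spread of a single gene.

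The starts of the principal transcripts named by APPRIS, a ranking of isoforms by protein features, lay inside the genes and showed another picture. Nfib had levels of 6.59 in uninjured M, 8.96 in uninjured F, 9.97 in 1 dpi M and 7.61 in 1 dpi F there. Nfic had 4.22, 10.9, 9.09 and 6.18, and Nfix 3.61, 6.09, 8.99 and 5.92. Nfia had 2.33, 5.62, 7.77 and 3.81, the lowest of the family in every library. Among the principal starts of all coding genes, the mean level was at percentile 73.6 for Nfib, 70.5 for Nfic, 63.2 for Nfix and 56.3 for Nfia. Within their classes of GC content these members were at percentiles 45.5, 44.4, 64.6 and 23.9. Conditions overlapped in all 4 genes, against 8.22% of 18238 tested principal starts with both 1 dpi libraries above and 14.5% with both below. The log2 changes were 0.52 for Nfia, 0.17 for Nfib, 0.13 for Nfic and 0.59 for Nfix, none called by limma, so Nfic and Nfix had opposite directions at their 5′ end and at their principal start.

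**Figure D2:**
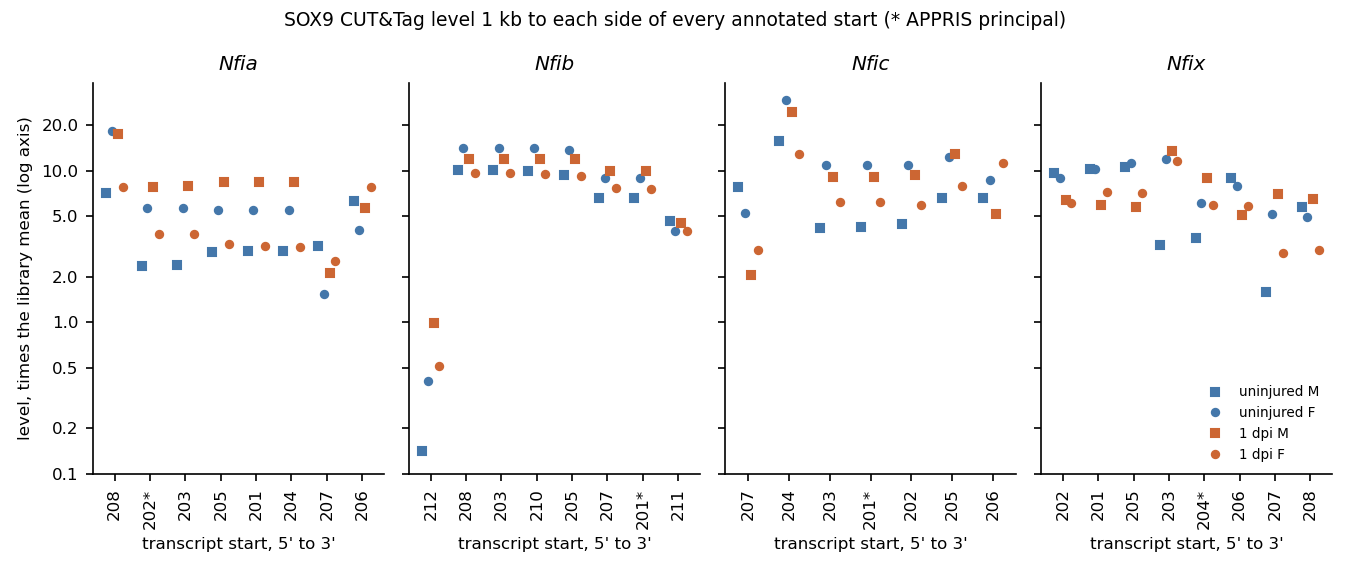
Level (log axis) within 1 kb of every distinct annotated start of the 4 genes, ordered from 5′ to 3′ along each gene, with 1 point for each SOX9 library and an asterisk at the APPRIS principal start. Numbers under the axis are transcript names without the gene, and the 5′ start of Nfib is the only one with a mean level under 2.33.

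Over all annotated transcripts, Nfia, Nfib and Nfix had 8 distinct starts each and Nfic 7. By mean level over the SOX9 libraries, the highest start of Nfic was that of Nfic-204 at position 81431005, with levels of 15.7, 29.1, 24.4 and 12.9 in uninjured M, uninjured F, 1 dpi M and 1 dpi F. The highest of Nfib was that of Nfib-208 at 82505779, with 10.1, 14.2, 11.9 and 9.63, and that of Nfix was Nfix-203 at 84774369, with a lowest level of 3.24 in uninjured M and a highest of 13.4 in 1 dpi M. Conditions overlapped at these 3 starts. In Nfia the 5′ end itself, Nfia-208 at 97772734, was the highest. Mean levels over the SOX9 libraries ran from 2.33 to 12.6 over the starts of Nfia, from 0.511 to 11.5 in Nfib, from 4.52 to 20.5 in Nfic and from 4.16 to 10.1 in Nfix. At 4 of the 8 starts of Nfix both 1 dpi libraries lay below both uninjured ones, against 0 of 8 in Nfia, 0 of 8 in Nfib, 1 of 7 in Nfic and 15.7% of all 83573 tested starts. The windows of Nfix-202, Nfix-201 and Nfix-205 among the 4 overlap and share fragments. Both lay above at 1 start of Nfib and at none of the other members, against 8.96% of all. None of the starts was called by limma in a fit of all starts of coding genes, which was added after the data had been seen.

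In both flanks, as over the bodies, Nfic and Nfix lay above Nfia and Nfib in every SOX9 library. In the 20 kb before the start, Nfix had levels of 5.80, 7.06, 6.52 and 4.55 in uninjured M, uninjured F, 1 dpi M and 1 dpi F, and Nfic had 3.90, 8.48, 4.33 and 5.38. Nfia had 2.23, 2.59, 3.69 and 1.88, and Nfib 0.263, 0.366, 0.345 and 0.394. Conditions overlapped in all 4 genes, and Nfib was under the minimum mean level of 0.5 and was not tested. Among the other 3, the count with both 1 dpi libraries above was 0 (12.4% of tested flanks) and the count with both below 0 (16% of tested flanks). Of these 3, 0 were called by limma and 0 had an unadjusted p under 0.05, against 0.023% and 3.33% of 17362 tested flanks, and their log2 changes were 0.12 for Nfia, -0.24 for Nfic and -0.21 for Nfix. These turned to -0.29 for Nfia without 1 dpi M, 0.28 for Nfic without uninjured F and 0.0237 for Nfix without 1 dpi F. In 10 kb the change of Nfix was -0.51, and in 50 kb it was -0.0437. That of Nfia was 0.23 in 50 kb and 0.32 with thinned fragment starts. That of Nfic was -0.11 with transcript starts left out of the flank. Without uninjured F, 38 flanks before genes were called, none of them of a member.

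In the 20 kb after the gene, Nfic had the highest levels of the family, 11.045 and 17.97 in uninjured M and F and 10.2 and 8.70 in 1 dpi M and F. Both 1 dpi libraries lay below, with a log2 change of -0.56 (SE 0.49, interval -1.52 to 0.40). This was -0.22 without uninjured F, -0.90 without uninjured M, -0.36 in 50 kb and -0.27 with transcript starts left out of the flank. Nfix had 4.08, 5.61, 4.38 and 4.28, and Nfib 0.669, 0.351, 0.991 and 0.666, with overlap. Nfia had 0.196 and 0.443 in uninjured M and F and 0.566 and 0.698 in 1 dpi M and F, above in both, but its mean was under the minimum and it was not tested. Among the 3 tested members, the count above was thus 0 (12.7% of tested flanks) and the count below 1 (15.6%). Of these 3, 0 were called and 0 had an unadjusted p under 0.05, against 0.0058% and 3.44% of 17231 flanks. Without uninjured F, 37 were called, none of them of a member.

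**Figure D3:**
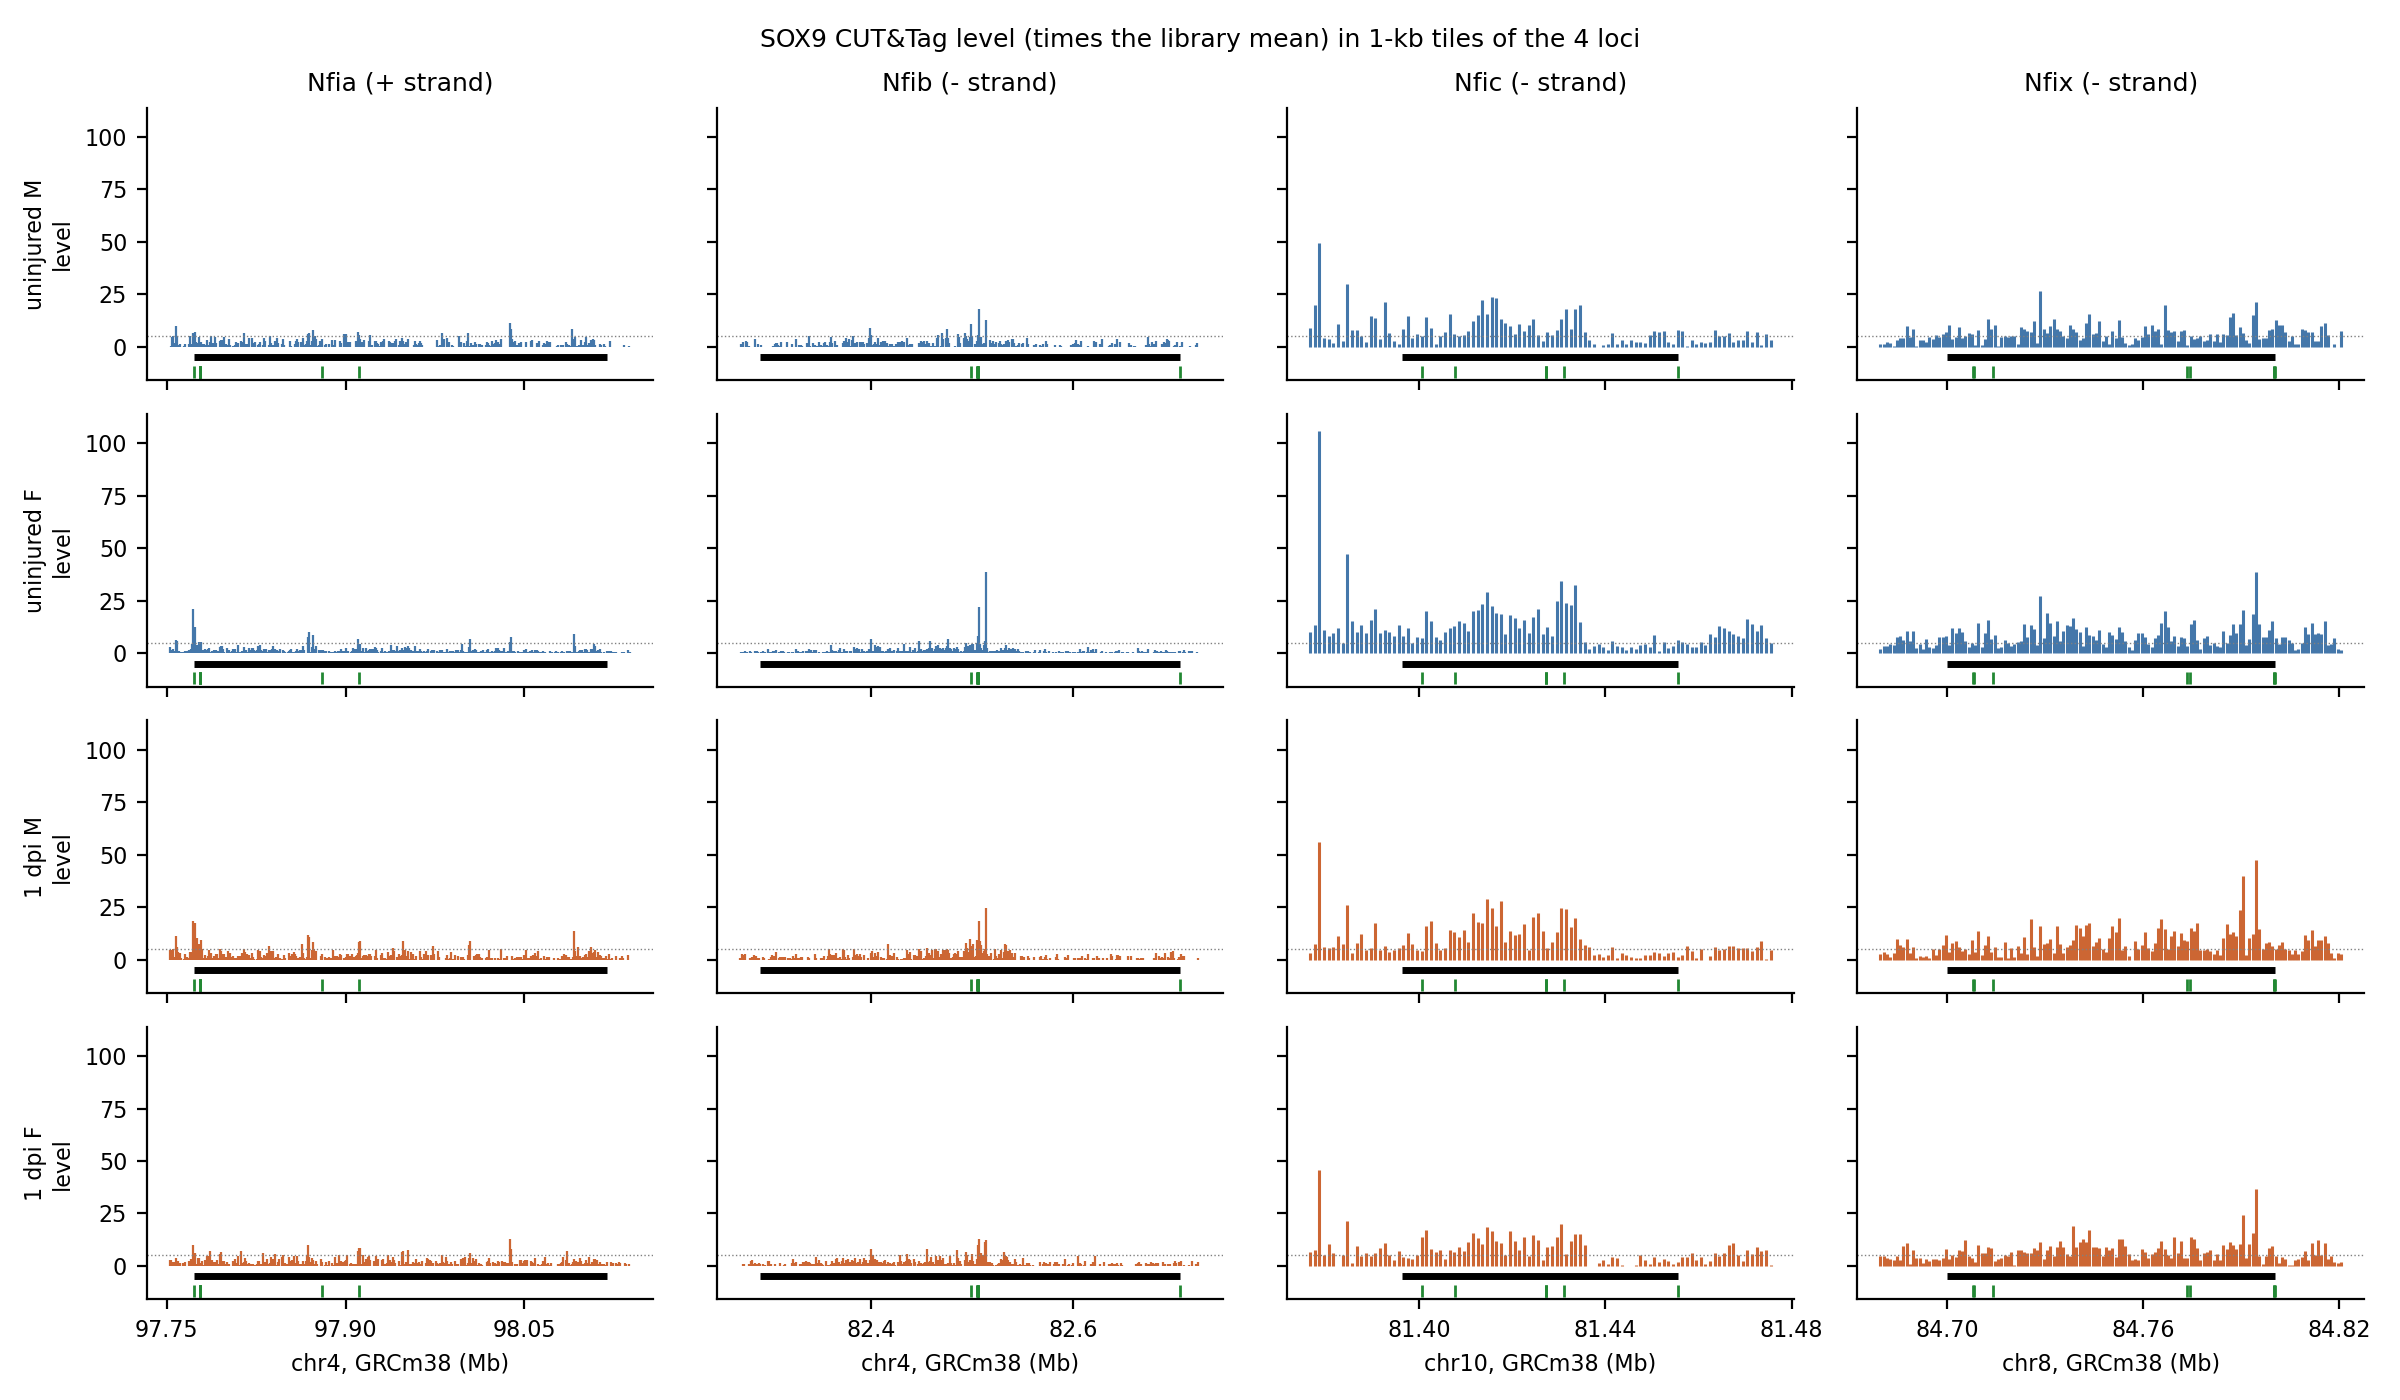
Level (times the library mean) in 1-kb tiles across the 4 loci, gene and 20 kb on each side, in each SOX9 library, with the gene as a black bar, its annotated starts as green ticks and 5 times the library mean as a dotted line. Tiles with a level of at least 5 in every SOX9 library are 41% of those at Nfic, 31% at Nfix, 0.775% at Nfia and 0.658% at Nfib.

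In 1-kb tiles of the same coverage, the share of each locus with high signal separated the same sets, so this is not a separate result. A tile was called high with a level of at least 5 in every SOX9 library, which holds for 0.851% of 2725511 tiles of the genome. At Nfic 41 of 100 tiles were high (41%) and at Nfix 44 of 142 (31%). At Nfia 3 of 387 were high (0.775%) and at Nfib 3 of 456 (0.658%). Without 1 dpi M, or without 1 dpi F, 6 tiles of Nfia were high (1.55%). High tiles over 1 kb from any start of a coding transcript were 37 of 44 at Nfix (84.1%), where 76.1% of all its tiles lie that far, and 24 of 41 at Nfic (58.5%), where 63% do. They were 1 of 3 at Nfia and 1 of 3 at Nfib, where 96.6% and 98% of all tiles lie that far. Over the genome they were 47.5% of the high tiles, where 94.9% of all tiles lie that far. High tiles of Nfic included 11 of the 40 in its flanks and 30 of the 60 over its body.

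No tile of the 4 loci changed by limma with all 4 SOX9 libraries. Of 336758 tested tiles, 58 rose and 9 fell, or 0.0199%, and 0 of these lay among the 104 tested tiles of Nfia, 64 of Nfib, 93 of Nfic and 138 of Nfix. At an unadjusted p under 0.05, tiles higher at 1 dpi were 4 at Nfia, 2 at Nfib, 0 at Nfic and 4 at Nfix, where the share of all tested tiles was 2.2%. Tiles lower were 2 at Nfia, 0 at Nfib, 4 at Nfic and 3 at Nfix, where it was 1.92%. The smallest adjusted p was 0.631 at Nfic and 0.991 at the other 3 loci. Over the genome the calls were 0 without uninjured F and 127 without 1 dpi M. Without 1 dpi M, 1 tile of the 4 loci was called, lower at 1 dpi, at 81382001 in the flank after Nfic (log2 change -4.57, adjusted p = 0.00232). Its levels were 10.7 and 12.1 in uninjured M and F, 11.4 in 1 dpi M and 0 in 1 dpi F, so that call rests on 1 library.

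In each locus the 3 highest tiles that lie over 1 kb from every start of a coding transcript are called distal tiles, and the highest mean level among these 12 was in Nfix. Its highest distal tile, at 84794001 to 84795000 on chromosome 8 in an intron, had a mean level of 36.1 over the SOX9 libraries, and another, at 84728001 to 84729000, also in an intron, had 20.4.

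In Nfic, the distal tiles at 81414001, 81415001 and 81433001 on chromosome 10 lay in introns, with mean levels of 22.9, 21.9 and 21.3 over the SOX9 libraries. With starts of noncoding transcripts included, the tile at 81415001 lies 297 bp from an annotated start and that at 81414001 lies 1297 bp from one. In Nfib, a single intronic tile at 82513001 on chromosome 4 stood out, with a mean level of 22.1. It also lies in an intron of Gm11266, an antisense gene. The other distal tiles of Nfib had mean levels of 5.92 and 5.90. In Nfia, neighbouring intronic tiles at 97868001 and 97869001 had mean levels of 8.86 and 7.87 and share 1 summit at their border. A tile before the gene at 97757001 had 7.75. It holds an annotated start of a noncoding transcript, and lies in an exon of the noncoding Gm12676 and an intron of the coding E130114P18Rik.

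Sequence was read 100 bp to each side of the position of highest summed level in each distal tile, on the plus strand of GRCm38. Words were searched on both strands, beside the same windows of 201 bp at all 23203 high tiles. The SOX words ACAAAG and ACAATG were in 2 of 12 distal windows and in 18.7% of all high tiles. The nuclear factor I word TTGGCA was in 2 of 12, which are the overlapping Nfia windows, and in 9.67% of all. The longer nuclear factor I site, TTGGC and GCCAA with 5 bases between, was in 0 of 12 and in 0.0129% of all, and the AP-1 words TGACTCA and TGAGTCA were in 0 of 12 and in 3.85%. Of the 12 distal tiles, 8 are themselves high. All 12 lie over 1 kb from coding transcript starts, against 47.5% of all high tiles, so the sets compared differ in kind. A match is a description of letters, and its absence says only that these letters are not in the window.

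Printed here are 4 windows: those of tiles that hold a word, with 1 for the overlapping pair of Nfia, and that of the single strong tile of Nfib, with matched words in capitals (SOX words in the Nfix windows, the nuclear factor I word in that of Nfia).
Nfix chr8:84794520-84794720: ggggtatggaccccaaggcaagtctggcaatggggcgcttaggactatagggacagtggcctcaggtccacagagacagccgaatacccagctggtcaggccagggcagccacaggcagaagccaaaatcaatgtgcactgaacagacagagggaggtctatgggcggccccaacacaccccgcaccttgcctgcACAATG
Nfix chr8:84728554-84728754: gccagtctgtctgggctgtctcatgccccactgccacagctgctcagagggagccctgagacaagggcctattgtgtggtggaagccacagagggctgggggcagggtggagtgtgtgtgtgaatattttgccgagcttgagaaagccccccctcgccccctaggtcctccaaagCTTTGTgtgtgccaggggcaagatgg
Nfia chr4:97868899-97869099: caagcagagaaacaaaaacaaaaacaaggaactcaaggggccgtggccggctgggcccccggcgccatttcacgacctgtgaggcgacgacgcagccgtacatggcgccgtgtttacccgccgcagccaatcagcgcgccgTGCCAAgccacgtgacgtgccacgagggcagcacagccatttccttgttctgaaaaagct
Nfib chr4:82513132-82513332: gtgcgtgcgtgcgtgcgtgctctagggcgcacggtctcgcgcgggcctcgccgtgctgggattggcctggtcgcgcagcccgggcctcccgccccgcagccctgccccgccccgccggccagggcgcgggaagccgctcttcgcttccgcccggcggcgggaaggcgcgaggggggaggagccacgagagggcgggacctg

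These windows differ in composition. GC content was 59.7% and 60.7% in the Nfix windows, 60.7% in that of Nfia and 79.6% in that of Nfib, where the median of all high tiles was 58.2%. In the Nfix tile at 84794001 the SOX word lies at the edge of the window, and in that at 84728001 it is read on the minus strand.

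Signal in the SOX9 libraries was compared with the secondary-only controls over each whole locus, since the start windows held at most 1 fragment in each control library. The share of fragments in the locus, SOX9 over control, was 1.39 at Nfia (exact 95% interval 0.918 to 2.23, 22 control fragments) and 1.12 at Nfib (0.744 to 1.77, 23 control fragments). It was 1.05 at Nfic (0.794 to 1.42, 49 control fragments) and 1.24 at Nfix (0.917 to 1.72, 42 control fragments). Over the 4 loci together the ratio was 1.18 (0.994 to 1.40). Each interval holds 1, so SOX9 signal above control was not shown at these loci with all libraries, and the intervals cover counting error only. With the 1 dpi libraries and controls alone, the summed ratio was 1.17 (0.915 to 1.52), and that of Nfia was 2.84 (1.30 to 7.76) from 6 control fragments, where the uninjured libraries gave 0.910 (0.559 to 1.60) from 16. In uninjured and at 1 dpi alone the ratio was 1.29 and 1.02 at Nfib, 1.28 and 0.780 at Nfic, and 1.20 and 1.28 at Nfix, with intervals that hold 1. The difference between these conditions was not tested.

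The starts and ends of control fragments were largely found again in SOX9 libraries. In the 4 loci, 113 of 136 control fragments (83.1%) had a start and an end that both occur in a single SOX9 library. The start and the end were matched separately, so they need not belong to the same SOX9 fragment. Matched were 19 of 22 at Nfia, 17 of 23 at Nfib, 41 of 49 at Nfic and 36 of 42 at Nfix. Over the genome the share was 93.4% and 81.2% in the uninjured controls M and F and 83.2% and 91.3% in those at 1 dpi. Against a single SOX9 library it ran from 16.1% to 44.7%, and from 0.0527% to 0.348% with control fragments shifted by 100 bp. Without the matched fragments the summed ratio was 1.05 (0.700 to 1.66) from 23 control fragments, with the SOX9 libraries left whole. Whether reads crossed between libraries was not tested.

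Coding genes that start inside the loci were read in the same windows. Fzr1, an activator of the anaphase-promoting complex that starts in the downstream flank of Nfic, had the highest level, with 32.4, 59.8, 32.6 and 26.2 in uninjured M, uninjured F, 1 dpi M and 1 dpi F. Its neighbours there, Dohh, Gm48551, Gm48552 and Smim24, had both 1 dpi libraries below both uninjured ones, as did the flank of Nfic in which they start and whose fragments they share. Dohh, an enzyme of hypusine synthesis, had 18.3, 29.1, 16.4 and 12.8, and its window nearly coincides with that of Gm48551. Around Nfix, Nacc1 and G430095P16Rik lay below at 1 dpi, Trmt1 above, and Lyl1 overlapped. E130114P18Rik starts 470 bp from the principal start of Nfia on the opposite strand, with 3.13, 5.64, 7.999 and 2.47, and the fragments of the 2 windows cannot be told apart. Of the 10 neighbours, 6 lay below and 1 above, against 14.7% and 8.44% of all tested 5′ ends, and none was called by limma.

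By Euclidean distance in log2(level + 0.5) at the 5′ end over the 4 SOX9 libraries, the coding genes most like each member were Eef2kmt (0.127) and Cisd3 (0.143) for Nfia and Akr1c13 (0.170) and Gm21976 (0.182) for Nfib. They were Sumf2 (0.181) and Map3k21 (0.2398) for Nfic and 6330409D20Rik (0.161) and Zfp563 (0.176) for Nfix. The likeness of those of Nfib is that of windows with few fragments.

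Among the listed gliogenic factors, 13 of 13 passed the minimum and 0 were called by limma. Their median log2 change was -0.24, where that of all tested windows was -0.07. Both 1 dpi libraries lay above both uninjured ones at Sox9 itself, with 4.39 and 3.77 in uninjured M and F and 9.45 and 4.63 in 1 dpi M and F, and at the Notch effector Hes1. Both lay below at Sox8, at Sox10, a determinant of oligodendrocytes, with 30.3 and 34.0 against 24.9 and 12.9, and at the neural factor Pou3f2, so 2 lay above and 3 below, against 8.44% and 14.7% of all tested 5′ ends. Of the 3 genes known as joint targets of SOX9 and NFIA, 0 were called, with a median log2 change of 0.56. Mmd2, whose log2 change is that median, had both 1 dpi libraries above, with 3.26 and 3.02 against 4.40 and 5.35. At Apcdd1 and Zcchc24 the conditions overlapped, with log2 changes of 1.17 and -0.20. Of these 3, 1 thus lay above and 0 below, against 8.44% and 14.7% of all tested 5′ ends. Of 10 astrocyte genes tied to nuclear factor I, 0 were called and the median was 0.14. The intermediate filament gene Gfap lay above at 1 dpi, with 2.40 and 2.68 against 3.69 and 3.81, and the glutamate transporter gene Slc1a3 lay below, with 3.33 and 3.75 against 2.58 and 1.53. Of the 10, 1 thus lay above and 1 below, against the same 8.44% and 14.7%.

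The 5′ ends of Nfic and Nfix lay below at 1 dpi together with those of several cell type markers. Both 1 dpi libraries were below both uninjured ones at Snap25 among the 3 neuron markers, at P2ry12 among the 3 microglia markers, where Cx3cr1 lay above, and at Aldh1l1 and Slc1a3 among the 5 astrocyte markers. Of these 11 markers, 4 lay below and 1 above, against 14.7% and 8.44% of all tested 5′ ends. The median log2 change was -0.38 over the neuron list, -0.31 over the microglia list and 0.10 over the astrocyte list. The part of cell composition in the levels at Nfic and Nfix was not tested.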

How the data were processed

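The deposited signal was whole-number fragment coverage per library, not scaled for depth. The authors demultiplexed reads with deML, mapped them to mm10 with Bowtie2 2.5.4 and removed duplicates with Picard 3.4.0. The step that wrote the coverage is not given in the sources used here. No stretch ran past a GRCm38 chromosome end. Genes are from GENCODE M21. Libraries were mapped to groups by their labels.

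Coverage per window was divided by the library mean and tested, 1 dpi against uninjured in the 4 SOX9 libraries, with limma 3.58.1 (R 4.3.3, mean-variance trend) on log2(level + 0.5), which understates changes of low windows. Benjamini-Hochberg adjustment ran over all windows with a mean level of at least 0.5 (2 for tiles), and calls had an adjusted p under 0.05. These minima were set after the data were seen. The prior degrees of freedom were infinite for starts, flanks and tiles and 3.53 for bodies. The fit was tested on simulated data. An exact permutation test of 2 libraries against 2 cannot go below p = 0.33. Each rise of the coverage was taken as the start of 1 fragment.

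Named were the members, neighbours starting in a locus, the 3 highest distal tiles per locus, the 2 nearest genes per member, and list genes called or, failing that, at most 3 per direction without overlap. Some of the items these rules choose are not reported here. Members and lists were chosen with earlier results of these data known. Alternatives covered scaling, pseudocount, filter, trend, sex block, fragment starts, windows, tile size, controls and each SOX9 library left out. Other tools were Python 3.11.15, numpy 2.4.6, scipy 1.17.1, pandas 2.3.3 and matplotlib 3.10.9.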

Additional observations from a re-analysis of the deposited data

Results flagged for a closer look

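In 11 of 20 member windows the M and F libraries differed in direction between uninjured and 1 dpi. Each direction is 1 library against 1, and the difference between sexes was not tested. At the 5′ end of Nfia the M libraries gave a log2 change of 1.23 and the F libraries -1.17. At the APPRIS principal starts it was 1.55 in M and -0.51 in F for Nfia, 0.56 and -0.22 for Nfib, 1.02 and -0.77 for Nfic, and 1.21 and -0.04 for Nfix. Over the bodies it was 0.29 and -0.60 for Nfic and 0.41 and -0.20 for Nfix. In the flank before the gene it was 0.62 and -0.38 for Nfia, 0.13 and -0.61 for Nfic, and 0.16 and -0.58 for Nfix. In the flank after the gene it was 0.0937 and -0.35 for Nfix. In all 11 the M libraries were higher at 1 dpi and the F libraries lower, and the F comparison holds the deepest library, uninjured F. Over all tested coding genes the same held for 54.4% of 5′ ends, 55.3% of principal starts, 40.6% of bodies, 41.2% of flanks before genes and 38.9% of flanks after genes, and the reverse for 9.60%, 9.45%, 17.2%, 18.2% and 20.2%, so this pattern is not limited to the members.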

How the results depend on the processing

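No 5′ end, body or flank of a member was called by limma under the alternatives run. Of the tiles in the 4 loci, 1 was called, in the flank after Nfic without 1 dpi M, and 0 under the other alternatives. Of 187 log2 changes of members under settings other than leaving out a library, 181 kept their direction and 6 did not, and the smallest adjusted p was 0.417. Of 55 with a library left out, 46 kept it and 9 did not (smallest adjusted p 0.294). An arm left with 1 library is assumed to vary like the other. The cause was not tested for any of the changes below.

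At the 5′ end, the log2 change of Nfia was -0.0136 with scaling by a trimmed mean of log ratios and -0.11 with fragment starts, that of Nfib was -0.11 with the narrower start window, and at APPRIS principal starts those of Nfic and Nfix were 0.13 and 0.59. The change at the 5′ end of Nfib was 0.43 without uninjured M, 0.27 with a pseudocount of 2 and 1.22 with a pseudocount of 0.1. That of Nfix was -0.92 with the narrower start window. That of Nfic was -1.83 with the narrower window and -0.77 with 2 kb to each side of the start. With 50 kb flanks the change after Nfix was 0.0146. Leaving out 1 SOX9 library, the change ran from -0.62 (without uninjured M) to 0.68 (without uninjured F) at the 5′ end of Nfia, from -0.39 to 0.0866 over the body of Nfic, from -0.0925 to 0.31 over that of Nfix, from -0.29 to 0.53 before Nfia, from -0.75 to 0.28 before Nfic, from -0.45 to 0.0237 before Nfix, from -0.90 to -0.22 after Nfic and from -0.34 to 0.0778 after Nfix. Without uninjured M, the median over all tested 5′ ends moved from -0.07 to -0.46, and without uninjured F to 0.29. Without the minimum, the change was 0.10 before Nfib and 0.48 after Nfia. At 2 times the minimum, without 1 dpi M, and with scaling by the mean over autosomes or by the median window, the 5′ end of Nfib was not tested.

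Windows called at the 5′ ends numbered 1 as reported and 0 with the trimmed mean, without a minimum, with 8 libraries, with thinned fragment starts, with the narrower window and with any SOX9 library left out, 2 at APPRIS starts, 8 with scaling by the median window and 2 over every transcript start, a setting added after the data were seen. Bodies numbered 0 as reported, 5 with the trimmed mean, 6 with 8 libraries, and from 0 to 100 with a library left out (55 without 1 dpi M, 100 without 1 dpi F). Flanks before genes numbered 4 as reported, 0 with the trimmed mean, 8 libraries, thinned fragment starts or 10 kb, 2 with a pseudocount of 2, 8 with fragment starts, and from 0 to 38 with a library left out (38 without uninjured F). Flanks after genes numbered 1 as reported, 0 with the trimmed mean, 8 libraries or thinned fragment starts, 2 with a pseudocount of 0.1 or 10 kb, 5 with 2 times the minimum, 4 with fragment starts or without transcript starts, 7 with 50 kb, and from 0 to 37 with a library left out. Tiles numbered 67 as reported, 20 with the trimmed mean, 38 with a pseudocount of 2, 11 without a minimum, 0 with 8 libraries, without the trend or with thinned fragment starts, 35 with fragment starts, and from 0 (without uninjured F) to 127 (without 1 dpi M) with a library left out.

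With sex as a replicate block, the bodies called numbered 329, the 5′ ends 1, the flanks 0 before and 0 after genes, and the tiles 23. With this block the prior degrees of freedom of the bodies became infinite as well. The labels tie the M and F libraries to no shared litter or day, so libraries with the same letter share only the sex of the animal. M minus F in uninjured correlated with M minus F at 1 dpi by -0.09 over 5′ ends and -0.11 over bodies. This correlation was -0.22 over flanks before genes, -0.22 over flanks after genes and -0.04 over tiles.

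High tiles were 2% of the genome at 3 times the library mean, 0.242% at 10 times and 0.984% in 2-kb tiles, and 0.935% to 1.23% with a library left out. At Nfia they were 2.84% and 0% at these thresholds and 1.03% to 1.55% with a library left out, at Nfib 1.54% and 0.439%, and 0.658% to 0.877% with a library left out, at Nfic 60% and 13%, and at Nfix 61.3% and 4.93%, 41.7% in 2-kb tiles and 32.4% to 43.7% with a library left out. The ratio to control was 0.910 and 2.84 at Nfia in uninjured and 1 dpi alone, 0.648 at Nfib without matched control fragments and 0.780 at Nfic at 1 dpi alone. In the wider summit windows, 5 of 12 distal windows held a SOX word and 3 the nuclear factor I word, where 31.6% and 17.8% of all high tiles did. Both counts include the overlapping pair of Nfia windows. Depth limits what low windows can show, and the 5′ end of Nfib rests on 1, 2, 2 and 2 fragments. At the 5′ end of Nfic, 1 dpi M and 1 dpi F held 3 and 4.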
